A study of Rattus norvegicus with 23 samples.

Results

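The vacuolar H+-ATPase (V-ATPase) and the ion channels and antiporters of endosomes and lysosomes were followed in 2 normal rat kidney cell lines, NRK-52E, which the labels call epithelial, and NRK-49F, which they call fibroblast. Members were taken by symbol from the deposited count table of the rat cells. They comprised each gene of the table used here whose symbol starts with Atp6v0 or Atp6v1, the accessory genes Atp6ap1 and Atp6ap2, the V-ATPase genes Tcirg1 and Rnasek, the assembly genes Dmxl1, Dmxl2 and Wdr7, the genes Clcn3 to Clcn7 with Ostm1, and the cation channel genes Mcoln1 to Mcoln3, Tpcn1 and Tpcn2. This gave 37 of the 30452 genes of the table, of which 32 passed the filter on low counts and were tested among 14777 genes. After 24 h in serum-free medium, all cells spent 48 h in medium of pH 7.4 or of pH 6.0, the latter set with HCl. The samples numbered 6 for NRK-52E at pH 7.4, 6 for NRK-52E at pH 6.0, 6 for NRK-49F at pH 7.4 and 5 for NRK-49F at pH 6.0. In each line they belong to 2 sample groups named in the labels, 1 and 3 for NRK-52E and 4 and 6 for NRK-49F. What a sample group stands for, and whether samples are separate cultures, the labels do not say. The study calls its samples biological, without describing the cultures behind each of them. The p-values thus measure the spread between these samples, which may be technical.

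The V-ATPase is a rotary proton pump. Its V1 sector in the cytosol hydrolyses ATP in a head of subunits A and B and turns a central stalk, its V0 sector in the membrane carries protons on a ring of proteolipid subunits past subunit a, and peripheral stalks of subunits C, E, G and H hold both sectors in place. The pump acidifies endosomes and lysosomes, and in the plasma membrane of acid-secreting kidney cells it exports protons. Antiporters of the CLC family exchange chloride for protons in the same vesicles, and the channels of the Mcoln (mucolipin) and Tpcn (two-pore channel) families release cations from them.

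Levels are given in FPM, fragments per 1000000 of the TMM-scaled library size, and FPM of different genes are not compared, since they are not corrected for transcript length. Total counts ranged from 16412564 to 34250535 per sample, and 3 counts corresponded to 0.08394 to 0.2028 FPM. No library repeated another of its group, since replicates of a group differed by more than counting noise in every pair (chi-square per degree of freedom from 5.911 to 133.4). Pairs across groups were not examined. Several defining epithelial markers were at or near 0 in NRK-52E samples, with Cdh1 at a mean of 0.160 FPM and Epcam at 0.00758 FPM at pH 7.4. Krt8 was present, at 499 FPM in NRK-52E and at 839 FPM in NRK-49F at pH 7.4. Krt7 went the other way, at 21.8 FPM in NRK-52E and 1.42 FPM in NRK-49F (log2 ratio 3.95, SE 0.31, adjusted p = 5.1e-11 in edgeR's quasi-likelihood test). Of the 3 tested epithelial markers, 1 was higher and 2 were lower in NRK-52E at pH 7.4, beside 35% and 33.9% of all tested genes. The 8 epithelial markers in the table summed to 463 to 683.2 FPM in NRK-52E at pH 7.4 and to 199.4 to 264.6 FPM at pH 6.0. At pH 6.0, 2 of the 3 tested ones fell in NRK-52E, beside 36.6% of all tested genes. The fibroblast gene Pdgfra separated the lines at pH 7.4 (1.83 FPM against 306 FPM), whereas Col3a1 was higher in NRK-52E (6149 FPM against 1212 FPM). The 9 fibroblast markers summed to 4903 to 8102 FPM in NRK-52E at pH 7.4 and to 1830 to 3110 FPM at pH 6.0, all 8 tested ones fell, and Thy1 had 0 counts. The part of either marker list in the results on the members was not tested. The NRK-52E sample A021 at pH 7.4 held more Pdgfra (4.73 FPM) than the other 5 samples of its group (0.679 to 2.21 FPM). Of the other fibroblast markers, Col1a1, Col1a2, Vcam1, Twist1 and Prrx1 were also highest in A021, whereas Col3a1 and Pdgfrb were not. Without A021, 12 members were called higher and 8 lower at pH 6.0 in NRK-52E. In the fit with all samples, 24.7% of all tested genes were called higher there and 36.6% lower.

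At pH 6.0, 11 members rose and 8 fell in NRK-52E and 13 did not pass the threshold, an adjusted p under 0.05 in edgeR's quasi-likelihood test. Of all tested genes, 24.7% rose and 36.6% fell. In NRK-49F, 4 members rose and 3 fell, beside 14.5% and 14.4% of all tested genes. The median log2 fold change of the tested members was 0.01 in NRK-52E, where that of all tested genes was -0.12, and 0.03 in NRK-49F, where that of all tested genes was 0.00088. Among the 19 tested subunits and accessory proteins of the V-ATPase itself, 9 rose and 4 fell in NRK-52E (median 0.17), and 3 rose and 1 fell in NRK-49F (median 0.14). In NRK-52E the calls went in both directions in the V1 head, the V1 stalks and V0. The 4 that fell there were the low isoform genes Atp6v1b1, Atp6v1c2, Atp6v1g2 and Atp6v0d2, at means of 9.11, 3.33, 1.24 and 0.836 FPM at pH 7.4. The fall in V0 was that of Atp6v0d2 alone, near the limit of detection. In NRK-49F only the V1 stalks had calls in both directions. Subunit D, encoded by Atp6v1d, rose most in NRK-52E, while the isoform gene Atp6v1c2 fell most.

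**Figure D1:**
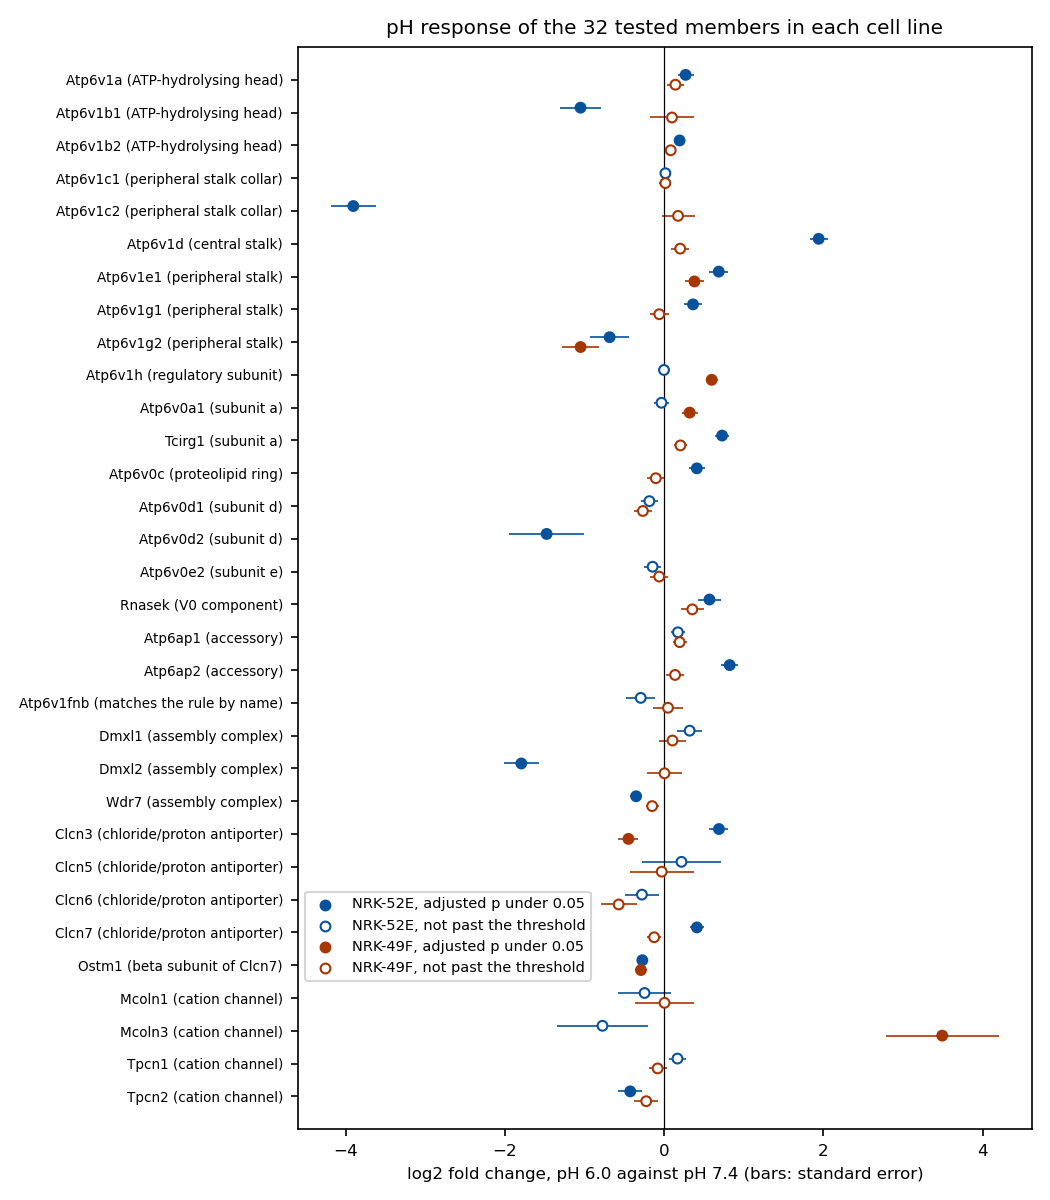
Log2 fold change from pH 7.4 to pH 6.0 (x axis, bars are standard errors) of the 32 tested members, ordered by role, in NRK-52E (blue) and NRK-49F (brown). Filled points have an adjusted p under 0.05, and Atp6v0d2 is not drawn for NRK-49F, where it was at 0 in all samples but 1. The points farthest from 0 are Atp6v1c2 and Atp6v1d in NRK-52E and Mcoln3 in NRK-49F.

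The summed level of the 22 V-ATPase subunit and accessory genes, given as a description, lay between 2211 and 2550 FPM in NRK-52E at pH 7.4 (median 2238) and between 2931 and 3334 FPM at pH 6.0 (median 3003). These ranges were apart. Genes with many counts weigh most in this sum, among them Atp6v1d (means of 88.5 and 340 FPM), while Atp6v1c1 had means of 184 and 186 FPM. Of the 19 tested ones, 9 rose and 4 fell in NRK-52E, beside 24.7% and 36.6% of all tested genes. In NRK-49F the sum reached 2386 to 2940 FPM at pH 7.4 (median 2556) and 2584 to 3098 FPM at pH 6.0 (median 2865), and the ranges overlapped. In such bulk samples, fewer cells that express a gene and less RNA per cell cannot be told apart.

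In the ATP-hydrolysing head, all 3 genes changed in NRK-52E and 0 of 3 passed the threshold in NRK-49F by edgeR. In NRK-49F, 0 had an unadjusted p under 0.05 and DESeq2 called 0. Of all tested genes, 24.7% rose and 36.6% fell in NRK-52E, and 14.5% rose and 14.4% fell in NRK-49F. Atp6v1a, the catalytic subunit A, rose from 163 ± 21.8 to 197 ± 14.7 FPM (mean ± SD, n = 6 each; log2 fold change 0.27, SE 0.10, adjusted p = 0.0223). This call was lost without sample A035 (adjusted p = 0.0639) or A038 (adjusted p = 0.0507). Atp6v1b2, the widely expressed subunit B isoform, rose from 120 ± 9.18 to 137 ± 7.84 FPM (log2 fold change 0.20, adjusted p = 0.0112). In a model with a pH response for each sample group, added after the data had been seen, Atp6v1b2 changed by 0.04 in group 1 (adjusted p = 0.624) and by 0.35 in group 3 (adjusted p = 0.000227), a difference with an adjusted p of 0.05104. Atp6v1a changed by 0.10 (adjusted p = 0.509) and by 0.44 (adjusted p = 0.00398), a difference with an adjusted p of 0.23. In NRK-49F the log2 fold changes of Atp6v1a and Atp6v1b2 were 0.14 and 0.08.

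Atp6v1b1, the subunit B isoform known from acid-secreting cells of the kidney and inner ear, took the opposite course. Its level in NRK-52E ranged from 4.74 to 12.3 FPM at pH 7.4 (median 9.97) and from 1.78 to 6.75 FPM at pH 6.0 (median 4.23). The ranges overlapped, and sample group 1 was higher than sample group 3 at either pH. Within each sample group they were apart, at 11.6 to 12.3 against 4.64 to 6.75 FPM in group 1 and at 4.74 to 8.32 against 1.78 to 3.82 FPM in group 3. Its log2 fold change was -1.05 (SE 0.26, adjusted p = 0.00123), with -1.06 in group 1 and -1.03 in group 3. NRK-49F samples held 2.94 to 4.39 FPM of Atp6v1b1 at pH 7.4 (median 3.60) and 3.87, 5.00, 3.34, 2.81 and 4.61 FPM at pH 6.0. The response there was 0.10 (SE 0.28, adjusted p = 0.831), and it differed from that of NRK-52E by -1.15 (SE 0.38, adjusted p = 0.0185). Among the other genes listed as markers of intercalated cells, the acid-secreting cells in question, Foxi1, Aqp6 and Atp6v0a4 had 0 counts in all 23 samples, Slc4a1 had 0 to 5 counts and Slc26a4 had 0 to 14 counts. None of these 5 was tested.

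Of the stalk genes of V1, 7 of 9 were tested, and 3 rose and 2 fell in NRK-52E, beside 24.7% and 36.6% of all tested genes. Atp6v1d (ENSRNOG00000009080, chromosome 6) encodes subunit D of the central stalk, the shaft that transmits rotation. In NRK-52E its level ranged from 82.7 to 101 FPM at pH 7.4 (median 86.7) and from 270 to 432 FPM at pH 6.0 (median 339). Every sample at pH 6.0 lay far above every sample at pH 7.4. This amounted to a log2 fold change of 1.94 (SE 0.11, adjusted p = 9.54e-13), with 1.74 in sample group 1 and 2.11 in sample group 3. At pH 7.4 the level in NRK-52E was below that in NRK-49F, which held 166 to 230 FPM (median 191; log2 ratio of the lines -1.12, SE 0.11, adjusted p = 2.07e-09). At pH 6.0 the NRK-49F samples had 250, 190, 230, 239 and 198 FPM of Atp6v1d and overlapped with pH 7.4 (log2 fold change 0.20, SE 0.11, adjusted p = 0.189). The responses of the lines differed by 1.74 (SE 0.16, adjusted p = 9.77e-09).

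Atp6v1c2 (ENSRNOG00000050553, chromosome 6) encodes an isoform of subunit C, the clamp at the collar of the peripheral stalks, that is known from kidney and lung epithelia. NRK-52E samples held 1.70 to 4.56 FPM at pH 7.4 (median 3.40, 30 to 134 counts) and 0.110 to 0.372 FPM at pH 6.0 (median 0.218, 2 to 7 counts). The ranges were apart, and the level at pH 6.0 was close to that of 3 counts. Atp6v1c2 thus fell by 3.90 on the log2 scale (SE 0.28, adjusted p = 3.26e-11), with -3.95 in sample group 1 and -3.87 in sample group 3. In NRK-49F the range was 4.43 to 6.76 FPM at pH 7.4 (median 5.82), and the samples at pH 6.0 had 4.38, 6.77, 6.45, 6.21 and 8.67 FPM. These values overlapped (log2 fold change 0.18, SE 0.21, adjusted p = 0.568), and the responses of the lines differed by -4.08 (SE 0.35, adjusted p = 4.23e-09). Nol10, a gene that overlaps Atp6v1c2 in the RefSeq annotation (assembly GRCr8), had a log2 fold change of 0.23 in NRK-52E (adjusted p = 0.0639). The widely expressed isoform gene Atp6v1c1 had 184 ± 7.32 and 186 ± 12.6 FPM at pH 7.4 and 6.0 in NRK-52E (log2 fold change 0.02, SE 0.07) and 154 ± 10.6 (n = 6) and 155 ± 18.7 FPM (n = 5) in NRK-49F (0.02, SE 0.08).

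Atp6v1e1, the widely expressed subunit E of the peripheral stalks, was called higher at pH 6.0 in both lines. Its range in NRK-52E was 169 to 214 FPM at pH 7.4 (median 190) and 242 to 398 FPM at pH 6.0 (median 309), without overlap. The rise was 0.69 on the log2 scale (SE 0.12, adjusted p = 2.47e-05), with 0.89 in sample group 1 and 0.44 in sample group 3. In NRK-49F the range was 188 to 259 FPM at pH 7.4 (median 201), and the samples at pH 6.0 had 303, 225, 286, 304 and 238 FPM. One sample at pH 7.4, A052, lay within the range of pH 6.0, and the other 5 did not exceed 205 FPM. Atp6v1e1 rose there by 0.38 on the log2 scale (SE 0.12, adjusted p = 0.0225), with 0.41 in sample group 4 and 0.34 in sample group 6. It did not pass the threshold without sample A042 (adjusted p = 0.0622), A054 (adjusted p = 0.0517) or A055 (adjusted p = 0.0647). The responses of the lines differed by 0.31 (SE 0.17, adjusted p = 0.161).

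Subunit G showed opposite changes of its isoforms in NRK-52E. Atp6v1g1, the widely expressed one, rose from 193 ± 25.8 to 248 ± 28.7 FPM (log2 fold change 0.36, SE 0.11, adjusted p = 0.00735). In NRK-49F it measured 250 ± 35.6 and 240 ± 42 FPM (log2 fold change -0.06, SE 0.12). The difference between the lines was 0.42 (adjusted p = 0.0405), and this call was lost when any of 12 replicates was left out, with an adjusted p of at most 0.0832.

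Atp6v1g2, an isoform known from neurons, was low and fell in both lines. The NRK-49F samples at pH 7.4 ranged from 2.77 to 3.83 FPM (median 3.44, 47 to 106 counts), and those at pH 6.0 had 1.38, 2.07, 1.37, 1.19 and 2.17 FPM (27 to 39 counts). The ranges were apart, with a log2 fold change of -1.05 (SE 0.24, adjusted p = 0.00163), -1.06 in sample group 4 and -1.01 in sample group 6. In NRK-52E it ranged from 1.09 to 1.47 FPM at pH 7.4 and from 0.247 to 1.10 FPM at pH 6.0, with a log2 fold change of -0.68 (SE 0.25, adjusted p = 0.0197). Its neighbour Nfkbil1, which overlaps Atp6v1g2 in the RefSeq annotation, had positive log2 fold changes of 0.47 (adjusted p = 0.00999) and 0.36 (adjusted p = 0.0925). The isoform gene Atp6v1e2, known from testis, had 0 to 0.713 FPM in all groups, and Atp6v1g3 had 3 counts in the NRK-52E sample A021 and 0 in the other 22 samples. Neither was tested.

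Atp6v1h encodes subunit H, which couples V1 to V0 and halts ATP hydrolysis in free V1. It was the V-ATPase gene with the smallest adjusted p in NRK-49F and its ranges overlapped in NRK-52E. In NRK-49F the samples at pH 7.4 ranged from 89.3 to 107 FPM (median 95.9), and those at pH 6.0 had 158, 130, 156, 149 and 136 FPM. All samples at pH 6.0 lay above all samples at pH 7.4. The rise of Atp6v1h was 0.60 on the log2 scale (SE 0.08, adjusted p = 2.06e-06), with 0.62 in sample group 4 and 0.57 in sample group 6. NRK-52E samples held 92.0 to 109 FPM at pH 7.4 (median 101) and 87.0 to 111 FPM at pH 6.0 (median 103), with a log2 fold change of -0.00048 (SE 0.07). The responses of the lines differed by -0.60 (SE 0.11, adjusted p = 7.76e-05).

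**Figure D2:**
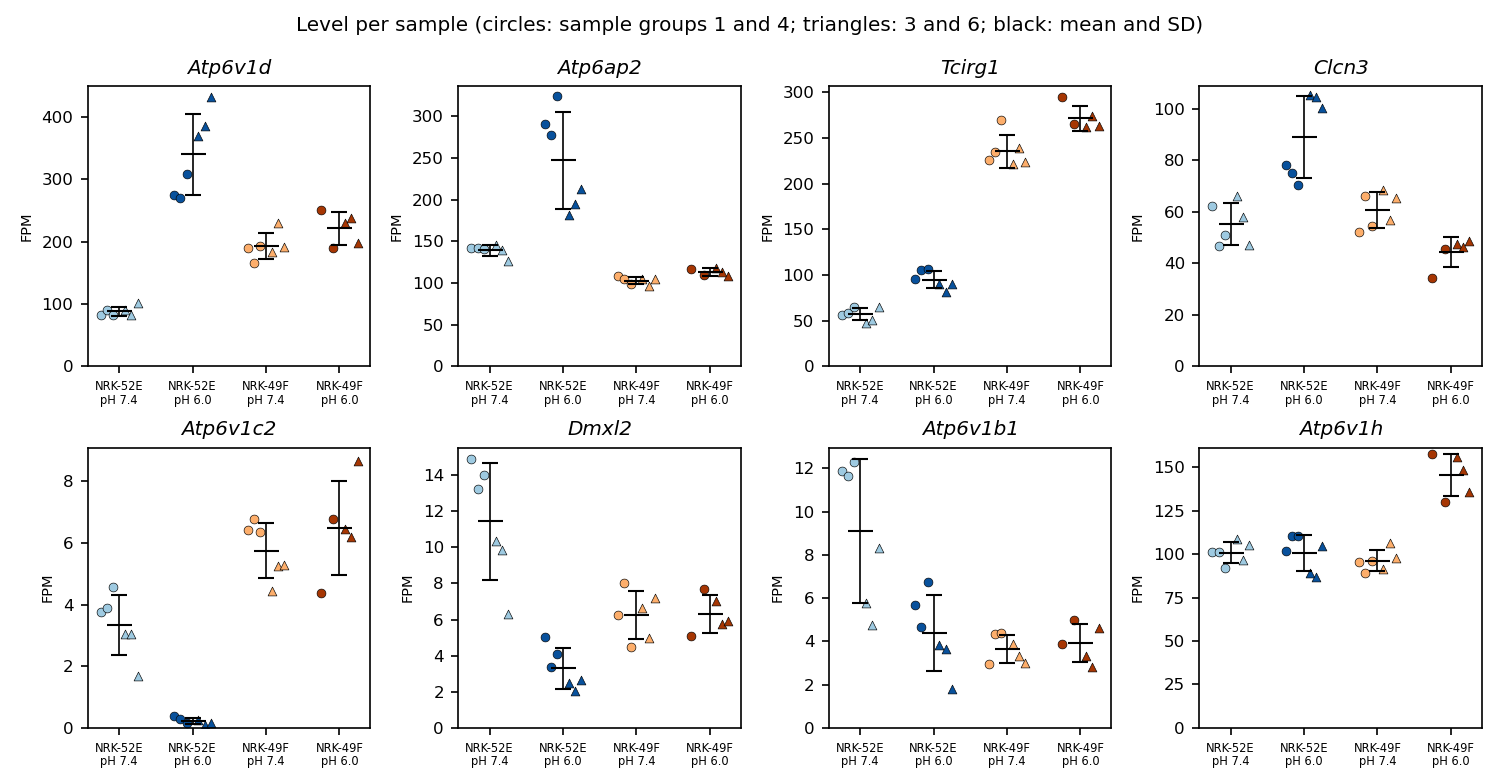
Level in FPM (y axes, linear from 0) of 8 members in every sample of the 4 groups. Circles are sample groups 1 and 4, triangles are sample groups 3 and 6, and black bars give the mean and SD of each group. Atp6v1d at pH 6.0 in NRK-52E lies at 270 to 432 FPM, above 82.7 to 101 FPM at pH 7.4, while Atp6v1h is raised at pH 6.0 in NRK-49F alone of the 2 lines (130 to 158 FPM against 89.3 to 107 FPM).

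In the V0 sector, 7 of 8 genes were tested. In NRK-52E 3 rose and 1 fell, beside 24.7% and 36.6% of all tested genes. In NRK-49F 1 rose and 0 fell by edgeR (3 and 1 at an unadjusted p under 0.05, 1 and 0 by DESeq2). Of all tested genes, 14.5% rose and 14.4% fell in NRK-49F. Tcirg1 (ENSRNOG00000017220, chromosome 1) encodes the a3 isoform of subunit a, known from osteoclasts and from lysosomes. In NRK-52E it ranged from 48.0 to 65.4 FPM at pH 7.4 (median 57.7) and from 81.6 to 107 FPM at pH 6.0 (median 93.3), without overlap. Tcirg1 rose by 0.73 on the log2 scale (SE 0.08, adjusted p = 6.55e-08), with 0.77 in sample group 1 and 0.68 in sample group 3. NRK-49F had more of it throughout, with 222 to 270 FPM at pH 7.4 (median 230; log2 ratio of the lines -2.04, SE 0.09, adjusted p = 4.67e-16). At pH 6.0 the NRK-49F samples had 295, 265, 262, 274 and 264 FPM, and 1 sample at pH 7.4 (A041, 270 FPM) lay within this range (log2 fold change 0.21, SE 0.09, adjusted p = 0.0751). The responses differed by 0.52 (SE 0.12, adjusted p = 0.0011).

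Atp6v0a1, the a1 isoform, behaved the other way round. In NRK-52E it measured 67.8 ± 5.45 and 66.3 ± 11.4 FPM (log2 fold change -0.03, SE 0.10, adjusted p = 0.795). The NRK-49F samples at pH 7.4 ranged from 54.1 to 68.9 FPM (median 63.9), and those at pH 6.0 had 76.5, 86.8, 76.1, 68.9 and 85.3 FPM. The lowest sample at pH 6.0 and the highest at pH 7.4 were nearly equal. The log2 fold change was 0.32 (SE 0.10, adjusted p = 0.0196), with 0.32 in sample group 4 and 0.34 in sample group 6, and the call was lost without sample A043 (adjusted p = 0.055) or A056 (adjusted p = 0.0532). The difference between the lines was -0.35 (adjusted p = 0.0471), which no longer passed the threshold when any of 16 replicates was left out (adjusted p of at most 0.0877). The a4 isoform gene Atp6v0a4, known from intercalated cells, had 0 counts in all 23 samples, and 3 counts in a sample would have been at most 0.2028 FPM.

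Isoform shares were expressed as a percentage of the summed counts of the isoform genes analysed here, without correction for length, and given as a description. For subunit a these were Atp6v0a1, Tcirg1 and Atp6v0a4, without Atp6v0a2, so that the values are not shares of the whole subunit. Tcirg1 took 41.98% to 48.95% of the counts of these 3 genes in NRK-52E at pH 7.4 (median 46.02%) and 53.67% to 63.27% at pH 6.0 (median 59.74%), so that the ranges were apart. In NRK-49F its share was 77.3% to 81.54% at pH 7.4 and 75.33% to 79.92% at pH 6.0, and these overlapped. Atp6v1b1 took 3.844% to 9.272% of the summed counts of Atp6v1b1 and Atp6v1b2 in NRK-52E at pH 7.4 (median 7.583%) and 1.174% to 4.906% at pH 6.0 (median 3.072%). Of the summed counts of Atp6v1c1 and Atp6v1c2, the share of Atp6v1c2 in NRK-52E was 0.8671% to 2.525% at pH 7.4 and 0.06502% to 0.2056% at pH 6.0, against 2.863% to 4.498% and 2.515% to 5.791% in NRK-49F. A longer transcript yields more counts, so these shares are compared between samples and not between isoforms.

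**Figure D3:**
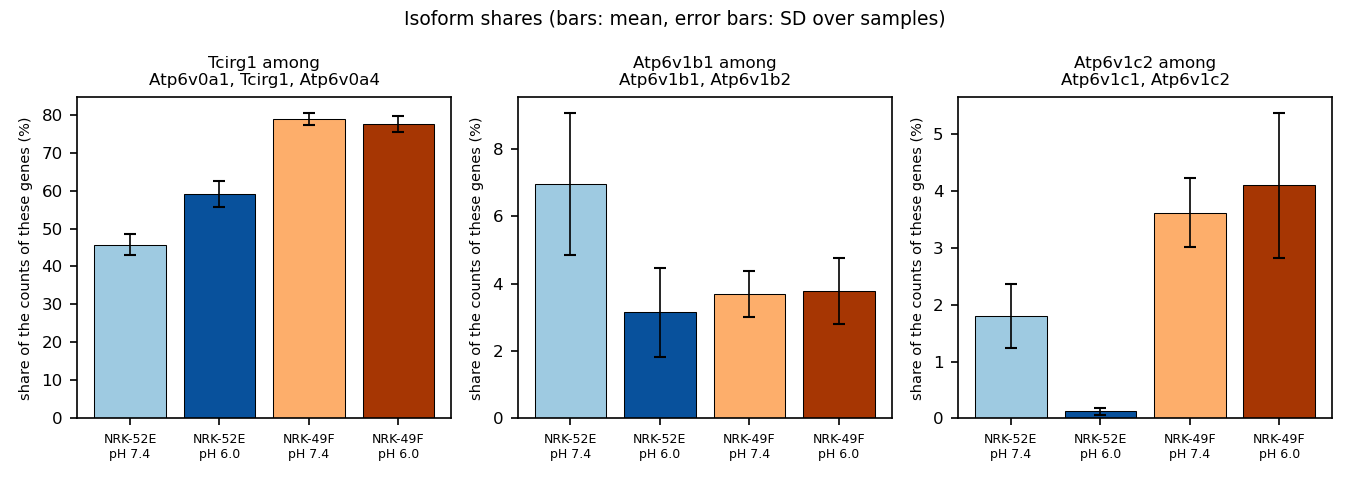
Share (y axes, percent, from 0) of Tcirg1 in the summed counts of Atp6v0a1, Tcirg1 and Atp6v0a4 (Atp6v0a2 not included), of Atp6v1b1 in those of Atp6v1b1 and Atp6v1b2, and of Atp6v1c2 in those of Atp6v1c1 and Atp6v1c2, in each group. Bars are means and error bars SD over 6, 6, 6 and 5 samples. In NRK-52E the Tcirg1 share is 45.8% at pH 7.4 and 59.1% at pH 6.0, and the shares of Atp6v1b1 and Atp6v1c2 are lower at pH 6.0.

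Atp6v0c, the proteolipid of the proton-carrying ring, rose in NRK-52E from 337 ± 50.0 to 448 ± 46.7 FPM (log2 fold change 0.41, SE 0.10, adjusted p = 0.00111), and measured 385 ± 43.8 and 359 ± 42.9 FPM in NRK-49F (log2 fold change -0.10, SE 0.11). Its responses differed by 0.52 (SE 0.15, adjusted p = 0.00669). Rnasek, a small membrane protein found in V0, rose in NRK-52E from 121 ± 22.2 to 180 ± 25.8 FPM (log2 fold change 0.57, SE 0.14, adjusted p = 0.0013), with 0.35 in NRK-49F (SE 0.15, adjusted p = 0.0758). Atp6v0d1, which connects the ring to the central stalk, had log2 fold changes of -0.18 (adjusted p = 0.157) and -0.27 (adjusted p = 0.0928).

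Atp6v0d2, an isoform of subunit d known from osteoclasts and kidney, was near the limit of detection. NRK-52E samples had 7 to 39 counts at pH 7.4 (0.382 to 1.17 FPM) and 1 to 19 counts at pH 6.0 (0.0524 to 0.637 FPM), with a log2 fold change of -1.47 (SE 0.47, adjusted p = 0.0108) and overlapping ranges. All NRK-49F samples had 0 counts, except 1 count in sample A043 at pH 6.0. Atp6v0e2, an isoform of the small subunit e, did not pass the threshold in either line (92.7 ± 12 and 83.9 ± 8.94 FPM in NRK-52E, 42.2 ± 4.70 and 40.4 ± 6.72 FPM in NRK-49F at pH 7.4 and 6.0) and was higher in NRK-52E at pH 7.4 (log2 ratio 1.14, SE 0.11, adjusted p = 8.23e-10). The subunit genes Atp6v1f, Atp6v0a2, Atp6v0b and Atp6v0e1 were not analysed here.

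Atp6ap2 (ENSRNOG00000003858, X chromosome), the (pro)renin receptor and an accessory protein of V0 assembly, rose in NRK-52E. Its range was 127 to 146 FPM at pH 7.4 (median 141) and 182 to 325 FPM at pH 6.0 (median 245), with no overlap. This was a log2 fold change of 0.82 (SE 0.11, adjusted p = 3.6e-07). In NRK-49F it ranged from 96.3 to 108 FPM at pH 7.4 (median 104), and the samples at pH 6.0 had 116, 110, 118, 113 and 108 FPM (log2 fold change 0.14, SE 0.11, adjusted p = 0.377). The responses differed by 0.69 (SE 0.15, adjusted p = 0.000833). Atp6ap1, the other accessory protein, changed by 0.17 in NRK-52E (adjusted p = 0.0745) and by 0.20 in NRK-49F (adjusted p = 0.0967), from 241 ± 17.4 to 272 ± 43 FPM and from 245 ± 11.1 to 281 ± 11.7 FPM. Atp6v1fnb, which matches by its symbol and is not a known pump subunit, had log2 fold changes of -0.29 (adjusted p = 0.168) and 0.05.

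The size of the Atp6ap2 change depended on the sample group. It was 1.07 in sample group 1 (277 to 325 FPM at pH 6.0) and 0.52 in sample group 3 (182 to 212 FPM), a difference of -0.56 with an adjusted p of 0.003345 in the model with a pH response for each sample group. In this model the response in sample group 3 was lower than in sample group 1 for 1 member, Atp6ap2 (6.87% of all tested genes), and higher for 1 member, Mcoln3 (3.78% of all tested genes).

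Dmxl1, Dmxl2 and Wdr7 encode the mammalian counterpart of the RAVE complex, which reassembles V1 with V0. In NRK-52E 2 of the 3 fell and 0 rose by edgeR (1 rose at an unadjusted p under 0.05 and by DESeq2, Dmxl1). Of all tested genes, 36.6% fell and 24.7% rose there. In NRK-49F 0 changed by edgeR at either level of p or by DESeq2, where 14.5% of all tested genes rose and 14.4% fell by edgeR. Dmxl2 (ENSRNOG00000009170, chromosome 8) ranged in NRK-52E from 6.28 to 14.9 FPM at pH 7.4 (median 11.8) and from 2.04 to 5.05 FPM at pH 6.0 (median 3.02), without overlap. Dmxl2 changed by -1.79 on the log2 scale (SE 0.22, adjusted p = 1.97e-07), with -1.75 in sample group 1 and -1.87 in sample group 3. The NRK-49F samples held 4.46 to 8.01 FPM at pH 7.4 (median 6.45) and 5.10, 7.68, 7.05, 5.74 and 5.94 FPM at pH 6.0. There the log2 fold change was 0.01 (SE 0.22), and the responses differed by -1.80 (SE 0.31, adjusted p = 6.01e-05). Wdr7 fell in NRK-52E from 25.6 ± 1.23 to 20.1 ± 1.68 FPM (log2 fold change -0.35, SE 0.08, adjusted p = 0.000462), with -0.15 in NRK-49F (adjusted p = 0.183). Dmxl1 had log2 fold changes of 0.32 (adjusted p = 0.0763) and 0.11.

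Among the chloride/proton antiporters, Clcn3 (ENSRNOG00000010682, chromosome 16), which encodes an exchanger of endosomes, changed in opposite directions in the lines. In NRK-52E it ranged from 46.9 to 66.1 FPM at pH 7.4 (median 54.5) and from 70.4 to 105 FPM at pH 6.0 (median 89.4). In NRK-49F it ranged from 52.4 to 68.6 FPM at pH 7.4 (median 61.2), and the samples at pH 6.0 had 34.4, 45.5, 47.7, 46.2 and 48.8 FPM. In either line the ranges were apart, with the pH 6.0 samples above in NRK-52E and below in NRK-49F. The log2 fold change was 0.69 in NRK-52E (SE 0.12, adjusted p = 2.44e-05; 0.48 in sample group 1 and 0.86 in sample group 3). It was -0.45 in NRK-49F (SE 0.13, adjusted p = 0.00926; -0.53 in sample group 4 and -0.42 in sample group 6). The difference was 1.14 (SE 0.17, adjusted p = 1.33e-05), while the lines at pH 7.4 had a log2 ratio of -0.14 (adjusted p = 0.311).

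Clcn7, the antiporter of lysosomes and of the osteoclast ruffled border, and its beta subunit Ostm1 moved apart in NRK-52E. Clcn7 rose there from 56.5 ± 2.75 to 75.3 ± 9.96 FPM (log2 fold change 0.41, SE 0.08, adjusted p = 0.000178) and measured 58.5 ± 5.31 and 53.6 ± 5.02 FPM in NRK-49F (log2 fold change -0.12, SE 0.09, adjusted p = 0.321), a difference of 0.54 (adjusted p = 0.0011). Ostm1 fell in both lines. It ranged in NRK-52E from 65.2 to 75.1 FPM at pH 7.4 and from 48.9 to 61.8 FPM at pH 6.0 (log2 fold change -0.27, SE 0.07, adjusted p = 0.00175). In NRK-49F it ranged from 76.3 to 92.2 FPM at pH 7.4 (median 84.7), with 67.4, 63.2, 69.1, 78.5 and 67.4 FPM at pH 6.0, so that 1 sample at pH 6.0 reached the range of pH 7.4. The log2 fold change was -0.29 (SE 0.07, adjusted p = 0.00433), with -0.42 in sample group 4 and -0.19 in sample group 6.

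The other 3 antiporter genes did not pass the threshold or were not tested. Clcn6, of late endosomes, had log2 fold changes of -0.28 (SE 0.21, adjusted p = 0.263) and -0.57 (SE 0.23, adjusted p = 0.0613). Clcn5, the antiporter of proximal tubule endosomes, was low in NRK-52E (0.0566 to 0.982 FPM at pH 7.4, 1 to 20 counts) and higher in NRK-49F (1.08 to 3.87 FPM, 16 to 92 counts; log2 ratio of the lines -2.61, SE 0.44, adjusted p = 1.28e-05). Clcn4 had a mean of 0.0505 FPM in NRK-52E and 0.442 FPM in NRK-49F at pH 7.4 and was not tested.

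Of the cation channels, Mcoln3 (ENSRNOG00000015024, chromosome 2), a channel of endosomes that conducts calcium, had the largest fold change of all members in NRK-49F. Its levels were low throughout. The NRK-49F samples at pH 7.4 had 0 to 0.400 FPM (median 0.0729, 0 to 12 counts), and those at pH 6.0 had 1.63, 2.20, 1.74, 1.95 and 1.28 FPM (23 to 54 counts). The ranges were apart, and most samples at pH 7.4 were at or below 3 counts. The log2 fold change was 3.49 (SE 0.71, adjusted p = 0.000588), with 4.10 in sample group 4 and 3.07 in sample group 6.

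In NRK-52E the level of Mcoln3 at pH 7.4 ranged from 1.08 to 2.24 FPM (median 1.39), above that of NRK-49F (log2 ratio 3.29, SE 0.69, adjusted p = 0.000189). At pH 6.0 the 2 sample groups separated. The samples of group 1 had 0, 0.218 and 0.0873 FPM, and those of group 3 had 1.68, 2.04 and 1.48 FPM. Pooled over both, the log2 fold change was -0.77 (SE 0.57, adjusted p = 0.248), but it was -3.65 within group 1 (adjusted p = 0.000109) and -0.04 within group 3 (adjusted p = 0.956). The difference between the sample groups was 3.61 (adjusted p = 0.006454). The difference between the responses of the cell lines, -4.27 (SE 0.91, adjusted p = 0.000608), pools both sample groups.

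Dnai3, a dynein arm gene of cilia, overlaps Mcoln3 in the RefSeq annotation, and the counting options given in the study's methods name no strand setting, so reads of the 2 genes may not be told apart. Dnai3 changed by -3.00 in NRK-52E (adjusted p = 1.71e-05) and by 2.25 in NRK-49F (adjusted p = 0.0014). In the NRK-52E samples of group 3 at pH 6.0, where Mcoln3 had 1.48 to 2.04 FPM, Dnai3 had 0.105, 0.221 and 0.296 FPM, close to the 0.159, 0.0546 and 0.0291 FPM of group 1.

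**Figure D4:**
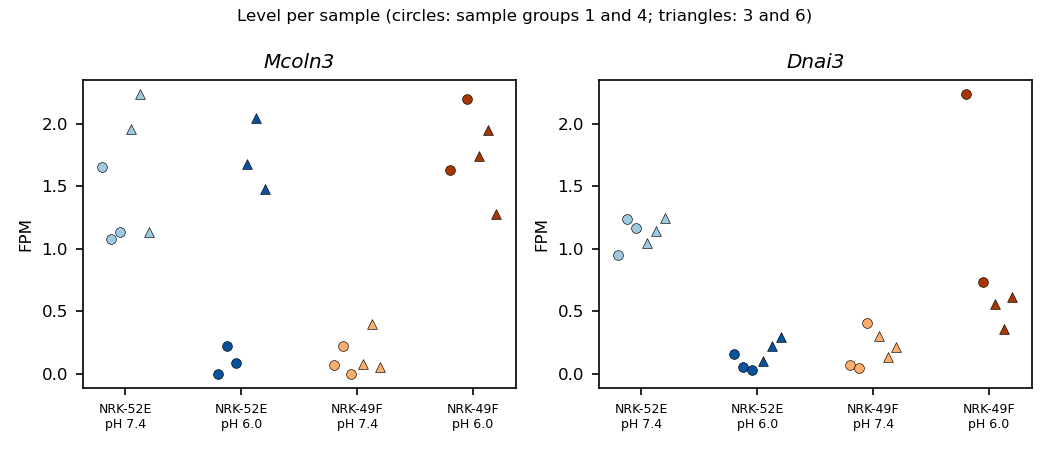
Level in FPM (y axes, linear) of Mcoln3 and of the overlapping gene Dnai3 in every sample of the 4 groups. Circles are sample groups 1 and 4 and triangles are sample groups 3 and 6. At pH 6.0 the NRK-52E samples of group 3 hold 1.48 to 2.04 FPM of Mcoln3 and those of group 1 at most 0.218 FPM, whereas Dnai3 is at or below 0.296 FPM in both.

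Mcoln1, the lysosomal mucolipin, was present at 1.35 ± 0.613 and 1.14 ± 0.697 FPM in NRK-52E and at 0.805 ± 0.0933 and 0.811 ± 0.251 FPM in NRK-49F, with log2 fold changes of -0.24 (SE 0.33, adjusted p = 0.545) and 0.01 (SE 0.37). Mcoln2 had 1 count in the NRK-49F sample A056 and 0 in the other 22 samples. The two-pore channel genes were higher in NRK-49F than in NRK-52E at pH 7.4. Tpcn1, of endosomes, ranged from 39.1 to 55.9 FPM in NRK-52E (median 44.3) and from 138 to 151 FPM in NRK-49F (median 142), and the log2 ratio of the lines was -1.65 (SE 0.11, adjusted p = 2.69e-12). Its pH responses were 0.17 (adjusted p = 0.189) and -0.08. Tpcn2, of lysosomes, had 15 ± 3.28 FPM in NRK-52E and 33.8 ± 4.14 FPM in NRK-49F (log2 ratio -1.17, SE 0.15, adjusted p = 1.91e-07). At pH 6.0 it fell in NRK-52E to 11.2 ± 2.21 FPM (log2 fold change -0.42, SE 0.15, adjusted p = 0.0179), a call lost without sample A022 (adjusted p = 0.0572) or A038 (adjusted p = 0.0536).

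At pH 7.4, 9 members were higher in NRK-52E than in NRK-49F and 11 were lower, beside 35% and 33.9% of all tested genes. The differences with the largest log2 ratios among members of at least 1 FPM were those of Mcoln3, Clcn5, Tcirg1, Tpcn1 and Atp6v1g2, the last at 1.09 to 1.47 FPM in NRK-52E and 2.77 to 3.83 FPM in NRK-49F (log2 ratio -1.43, SE 0.23, adjusted p = 5.38e-06). Cell line and sample groups cannot be told apart here, since each sample group holds 1 line. The responses to pH 6.0 differed between the lines for 13 members, with the change in NRK-52E above that in NRK-49F for 7 and below it for 6, beside 16.8% and 24.7% of all tested genes.

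Within NRK-52E, the 8 called members of at least 1 FPM with the largest changes had the same direction in either sample group. They were picked by their change over both groups together, so a shared direction is no separate support. Only Atp6ap2 among these 8 had a difference between the groups that passed the threshold. For other members the values lay apart without passing it. Atp6ap1 changed by 0.30 in group 1 and by 0.02 in group 3 (adjusted p of the difference 0.0932), and Atp6v0a1 by 0.13 and by -0.23 (adjusted p of the difference 0.157).

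**Figure D5:**
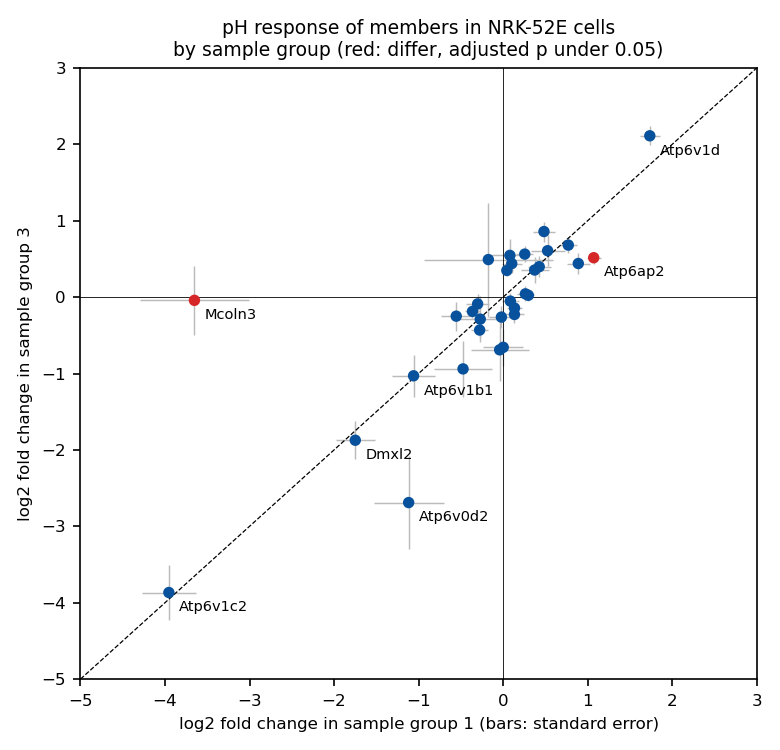
Log2 fold change from pH 7.4 to pH 6.0 in NRK-52E in sample group 1 (x axis) against sample group 3 (y axis) for the 32 tested members, with standard errors as bars and the line of equal response dashed. The members in red, Mcoln3 (-3.65 against -0.04) and Atp6ap2 (1.07 against 0.52), differ between the sample groups with an adjusted p under 0.05.

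Promoters of lysosomal genes often carry the letters TCACGTGA around an E-box (CACGTG), which transcription factors of the MiT/TFE family bind. The RefSeq promoters (GRCr8, windows of 300 bases at the start site) covered 30 of the 37 members. Both motifs are palindromes, so that 1 search reads both strands, and the first contains the second. TCACGTGA stood in the windows of 3 members (Atp6v0d1, Clcn6 and Mcoln1) and in 0.777% of all 33469 windows. CACGTG stood in those of 5 members, the 3 above with Clcn4 and Clcn7, and in 6.42% of all windows. Of the 11 members that rose in NRK-52E, 10 had a window, and 1 of these, Clcn7, held CACGTG. The sequences below are shown to compare the windows of 4 members that hold a match, in capitals, with that of the member that rose most. The Clcn6 stretch is on the minus strand of chr5:163748213-163748260, that of Atp6v0d1 on the minus strand of chr19:50357274-50357321, that of Mcoln1 on the plus strand of chr12:6358241-6358268, that of Clcn7 on the plus strand of chr10:14656207-14656252, and that of Atp6v1d, the last 100 bases before its start, on the minus strand of chr6:103405347-103405446, where no match was found.
Clcn6: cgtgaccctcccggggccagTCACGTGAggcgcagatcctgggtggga
Atp6v0d1: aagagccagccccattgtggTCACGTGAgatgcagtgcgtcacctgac
Mcoln1: gttcgacccaggcgccccgcTCACGTGA
Clcn7: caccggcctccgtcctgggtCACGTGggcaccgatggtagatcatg
Atp6v1d: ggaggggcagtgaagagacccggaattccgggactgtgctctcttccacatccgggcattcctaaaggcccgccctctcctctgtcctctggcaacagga
The 3 members with TCACGTGA were among those that did not pass the threshold in NRK-52E or NRK-49F. These matches are a description of the letters in the windows and not of binding.

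Among related genes outside the membership (assembly factors of the pump, the Ragulator and Rag proteins that signal amino acids from the pump to mTORC1, the MiT/TFE factors, the enzymes of the lipid PI(3,5)P2 and other lysosomal membrane proteins), 32 were tested. In NRK-52E 13 rose and 8 fell, beside 24.7% and 36.6% of all tested genes, with a median log2 fold change of 0.11 (all genes -0.12). In NRK-49F 2 rose and 4 fell, beside 14.5% and 14.4% of all tested genes, with a median of -0.03 (all genes 0.00088). Tmem199, an assembly factor of V0, rose in NRK-52E from a range of 38.1 to 55.9 FPM to a range of 107 to 165 FPM (log2 fold change 1.58, SE 0.12, adjusted p = 4.29e-11). It also rose in NRK-49F (0.43, SE 0.12, adjusted p = 0.00836), by less (difference 1.15, SE 0.16, adjusted p = 5.47e-06). Rogdi, a further partner of the RAVE complex, rose in both lines, by 0.54 and 0.58 (adjusted p = 0.000669 and 0.00157), in contrast to Dmxl2 and Wdr7. Tldc2, of a family that interacts with the pump, rose in NRK-52E from a mean of 0.207 to 1.09 FPM (log2 fold change 2.39, SE 0.48, adjusted p = 0.000135). Its samples there had 3 to 9 counts at pH 7.4, near the limit of detection, and 10 to 43 counts at pH 6.0.

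Tfeb, a transcription factor of lysosomal genes, fell in both lines, from 62.6 ± 6.11 to 38.8 ± 5.75 FPM in NRK-52E (log2 fold change -0.69, SE 0.09, adjusted p = 6.91e-07) and from 28.7 ± 2.46 to 21.3 ± 1.48 FPM in NRK-49F (-0.43, SE 0.10, adjusted p = 0.0017). Mitf, of the same family, fell in NRK-52E from 1.08 to 0.124 FPM (log2 fold change -3.04, SE 0.38, adjusted p = 3.16e-07). Its level there was low, with 8 to 59 counts at pH 7.4, highest in sample A021, and 0 to 7 counts at pH 6.0. The log2 fold change of Mitf in NRK-49F, where the level was 17.5 FPM at pH 7.4, was 0.11. Tfe3, also of this family, rose in NRK-52E from 49.2 ± 3.44 to 64.1 ± 6.59 FPM (log2 fold change 0.38, SE 0.07, adjusted p = 7.92e-05), with 0.05 in NRK-49F (adjusted p = 0.664). Of the 3 tested MiT/TFE factors, 1 rose and 2 fell in NRK-52E, beside 24.7% and 36.6% of all tested genes. Lamtor1, the Ragulator subunit that anchors the complex to lysosomes, fell in NRK-49F from 123 ± 17.2 to 91.3 ± 14.1 FPM (log2 fold change -0.43, SE 0.11, adjusted p = 0.00429). In NRK-49F the lysosomal glycoprotein gene Cd68, listed here as a macrophage marker, rose from 29.9 ± 4.21 to 229 ± 13.8 FPM (log2 fold change 2.94, SE 0.24, adjusted p = 2.73e-09), while the leukocyte marker Ptprc had at most 6 counts and the macrophage marker Adgre1 had 0 counts in all samples. The 8 macrophage or osteoclast markers summed to 21.91 to 33.53 FPM at pH 7.4 and to 217.3 to 251.2 FPM at pH 6.0 in NRK-49F. Nearly all of this sum was Cd68. Itgam, Acp5 and Ocstamp had at most 2, 5 and 1 counts in any sample. In NRK-52E, the line in which Tcirg1 and Clcn7 rose, they summed to 2.345 to 4.251 FPM at pH 7.4 and to 4.143 to 8.709 FPM at pH 6.0. Both tested markers rose there, Cd68 by 1.10 on the log2 scale (adjusted p = 0.00167) and Csf1r, the receptor of a macrophage growth factor, by 1.28 (adjusted p = 0.00684). Of all tested genes, 24.7% rose in NRK-52E. Aif1, too low to be tested, had means of 0.371 FPM at pH 7.4 and 0.119 FPM at pH 6.0 there. The part of these markers in the results on the members was not tested.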

How the data were processed

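Poly(A) RNA of 23 rat samples was sequenced in read pairs. The authors mapped reads with HISAT2 2.1.0 and deposited raw counts per Ensembl gene from featureCounts, multi-mapping reads included, so that genes with near-identical copies can share reads. The genome is rn7 in the study's methods and rn6 in the submitters' processing notes, and the counting options given in the methods name no strand setting. The table has 13 further columns that match no label used here and were left out. Human samples were not analysed here.

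All 23 samples were fitted in 1 edgeR 4.0.16 model (R 4.3.3) with 4 groups, filterByExpr (minimum count 10, minimum total 15), TMM scaling, the quasi-likelihood test and Benjamini-Hochberg adjustment over 14777 genes. The standard error is the absolute log2 fold change divided by the square root of F. No replicate code occurs at both pH values, so samples are unpaired. The members and lists were chosen with earlier results of these data known. Named in full are, of members past the threshold with at least 1 FPM, the 8 largest changes per line, the 5 largest differences of responses and the 5 largest between lines, with isoforms of restricted expression, and of related genes the 2 largest rises and falls per line. Tfe3 is named in addition, beside the other factors of its family. The script was tested on simulated data. Alternatives changed scaling, test (DESeq2 1.42.0, likelihood ratio), filter, depth, threshold, sample groups and each replicate. Intervals of counting error were not computed, and the limit of 3 counts covers counting error only. Figures used matplotlib 3.10.9.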

Additional observations from a re-analysis of the deposited data

Results flagged for a closer look

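Of 127 sets of values (a member in 1 group of samples), 10 had a single sample far from the others, and chance alone gives about 1 in 20. In NRK-52E at pH 7.4, sample A035 stood apart for 4 members. It was high for Atp6v0c (437 FPM, others 303 to 332), Atp6v0d1 (242 FPM, others 171 to 191) and Rnasek (164 FPM, others 105 to 126), and low for Atp6ap2 (127 FPM, others 140 to 146). In NRK-49F at pH 7.4, sample A052 was high for Atp6v1e1 (259 FPM, others 188 to 205) and Atp6v1g1 (318 FPM, others 216 to 252), sample A041 for Tcirg1 (270 FPM, others 222 to 239) and sample A051 for Mcoln1 (0.985 FPM, others 0.735 to 0.808). In NRK-49F at pH 6.0, sample A042 was low for Clcn3 (34.4 FPM, others 45.5 to 48.8), and sample A043 had the only count of Atp6v0d2 (0.061 FPM, others 0).

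The responses to pH 6.0 differed between the cell lines for 13 of 32 tested members, beside 16.8% of all tested genes with a higher and 24.7% with a lower change in NRK-52E. The change in NRK-52E exceeded that in NRK-49F for Atp6v1d (by 1.74 on the log2 scale), Clcn3 (1.14), Atp6ap2 (0.686), Clcn7 (0.537), Tcirg1 (0.523), Atp6v0c (0.515) and Atp6v1g1 (0.424). The difference was negative for Mcoln3 (-4.27), Atp6v1c2 (-4.08), Dmxl2 (-1.80), Atp6v1b1 (-1.15), Atp6v1h (-0.599) and Atp6v0a1 (-0.354). The call for Atp6v1g1 was lost when any of 12 replicates was left out, and that for Atp6v0a1 when any of 16 was left out.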

How the results depend on the processing

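Of 862 values of named members under the alternatives, 845 kept their direction and their side of the threshold, 17 no longer passed it and 0 were reversed. These values belong to 25 results picked as the largest called changes in these same samples. Many come from fits without 1 replicate, which share the other samples. The tally is therefore a description and no separate support, and it leaves out members near the threshold that were not picked. With at least 10 counts in every sample, 5 members fell in NRK-52E and the difference of the responses was negative for 3. Members with low counts are then not tested. Among the 6 negative differences of the main fit these were Atp6v1c2 and Mcoln3, which do not account for the whole drop. Of all genes tested under this filter, 34.9% fell in NRK-52E and 25.4% had a negative difference of the responses. At an adjusted p under 0.01, 5 members fell in NRK-52E and 2 rose in NRK-49F, beside 30.3% and 9.09% of all tested genes. With the sample group as a covariate, 6 members rose and 5 fell in NRK-49F, beside 16.6% and 16.7% of all tested genes. Within single sample groups, 5 members fell in group 3, beside 31.6% of all tested genes. In group 4, 2 rose and 0 fell by edgeR (3 fell at an unadjusted p under 0.05: Clcn3, Ostm1 and Atp6v1g2), beside 4.73% and 3.97% of all tested genes. In group 6, 2 rose and 1 fell, beside 7.88% and 8.09% of all tested genes. Each of these fits had fewer samples. Leaving out 1 replicate gave 10 to 12 members higher and 7 to 8 lower in NRK-52E, and 3 to 5 and 3 to 4 in NRK-49F. It gave 6 to 7 and 5 to 6 for the difference of the responses, and 8 to 11 and 11 to 12 between the lines. In the fit with all samples, the shares of all tested genes were, in the same order, 24.7% and 36.6%, 14.5% and 14.4%, 16.8% and 24.7%, and 35% and 33.9%. The difference between the lines at pH 7.4 for Dmxl1 (log2 ratio 0.36, adjusted p = 0.0422) was lost when any of 8 replicates was left out, at most to an adjusted p of 0.143. Other scalings moved the median of all genes by at most 0.049. Levels from the raw library size stayed within 1 SD for 51 of 60 values. No paired analysis was possible because the groups compared share no replicate codes.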
